A study of Saccharomyces cerevisiae with 104 samples.

Results

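RNA levels in budding yeast with glutamine in place of lysine K115 of histone H3 (H3K115Q) were compared with those in the unmutated strain (WT). The members are the 3 count columns whose names start with H3K115Q and the 4 whose names start with WT, that is 7 of 90 RNA libraries. The series covers WT and 29 strains in which 1 residue of H3 or H4 is replaced, and its 14 ATAC-seq samples were not analysed here. All strains have the same background, MSY196, which derives from S288C. H3K115Q and WT differ in the labels only by that 1 residue, with no drug or added treatment given for the RNA samples. How the altered H3 gene is carried, the growth medium and the number of independent strains per genotype are not given in the sources used here. Total RNA, extracted with hot acidic phenol, was read with QuantSeq, which sequences the 3′ end of polyadenylated transcripts, so that a count stands for a transcript end rather than for gene length.

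Lysine K115 of H3 lies on the lateral surface of the nucleosome near the dyad, the midpoint of the wrapped DNA, where the histone touches the DNA backbone. The residue can be acetylated. Glutamine, which carries no charge, is often used in place of acetyl-lysine, whereas arginine keeps the positive charge and alanine removes the side chain. Residues of this surface affect how tightly DNA is held and how well a nucleosome stays in place, among them lysine K122, which is also close to the dyad. Yeast makes its H3 from HHT1 and HHT2 and its H4 from HHF1 and HHF2, arranged as divergent pairs of an H3 and an H4 gene.

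Counts in genes were 903370 to 1413330 in the 3 H3K115Q libraries and 1748800 to 2024896 in the 4 WT libraries, within the 24010 to 3143681 of all 90. Each library is named by its genotype and the sample number of its column. Numbers S46 to S93 form a first set of 44 libraries, which holds H3K115Q S67 and S68 and WT S46, S81 and S82. H3K115Q S103 belongs to a second set (S94 to S117) without any WT library, and WT S133 to the third (S118 to S141). These sets are ranges of sample numbers whose borders were chosen here, and the labels call them nothing. The numbering has no gap at either border, and some numbers within the ranges have no library. H3K115Q S67 and S68 differed from each other by 2.09 times counting noise (chi-square per degree of freedom), whereas S103 differed from them by 10.5 and 9.36 times and WT pairs by 9.22 to 47.5 times. The labels number the replicates without stating that each was a culture of its own, so the spread between libraries that p values rest on may be technical. In the main fit that spread was estimated over all 90 libraries. Levels are given as CPM, counts per 1000000 gene counts after scaling. Summed over 4 markers of alpha cells, the mating type with the STE3 receptor, they were 1351 to 2667 CPM in H3K115Q and 1458 to 2450 CPM in WT. The 7 a-cell markers, of which 5 were tested, summed to 13.6 to 24.4 CPM and 16.2 to 33.3 CPM, and none of the 9 tested markers was called in either direction. CPM is a share of each library, so less RNA per cell and fewer cells with a transcript cannot be told apart.

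Few transcripts passed the threshold between H3K115Q and WT, which does not show that few changed. Of 5822 genes tested, 9 (0.155%) passed an adjusted p of 0.05 in edgeR's quasi-likelihood test and are named called genes below. The histone H4 gene HHF2, the serine synthesis gene SER3, the cytochrome c gene CYC1 and the amino acid permease genes AGP1, MUP1 and MUP3 were higher in H3K115Q (0.103% of genes). YGR201C, YDR210C-D and YHL006W-A were lower (0.0515%). The mean level of HHF2 was 18.8 times that of WT, and those of the other higher genes were 2.03 to 4.49 times. The lower genes were at 0.209 to 0.367 times WT. In each of the 9, no H3K115Q library overlapped with a WT library, which was the case for 5.57% of all genes tested (2.34% higher and 3.23% lower). An unadjusted p under 0.05 was found for 325 genes (5.58%). DESeq2 called 14 genes (0.24%), the same 9 and TAL1, BNA1, CIT2, ADH2 and IMD4. With only the 7 libraries of both genotypes in the edgeR fit, 2 of 5285 genes (0.0378%) were called, HHF2 and ADH2. The other 8 called genes then had the same sign and adjusted p of 0.0508 to 0.396.

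**Figure D1:**
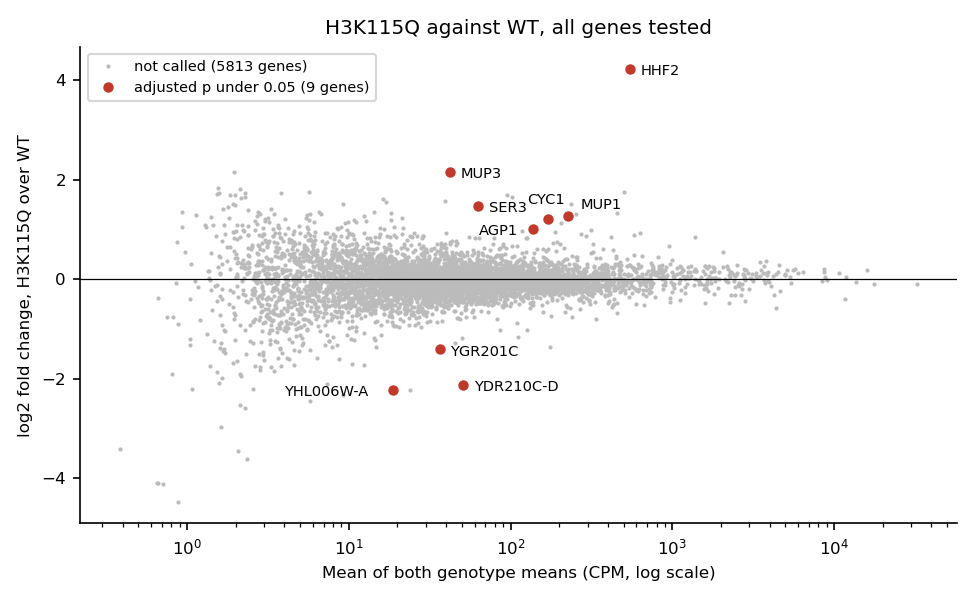
Fitted log2 fold change of H3K115Q over WT (y axis) against the mean of both genotype means in CPM (x axis, log scale) for the 5822 genes tested, 1 point per gene. Red points are the 9 called genes, with HHF2 at a log2 fold change of 4.23 above all others, and grey points are the genes not called.

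**Figure D2:**
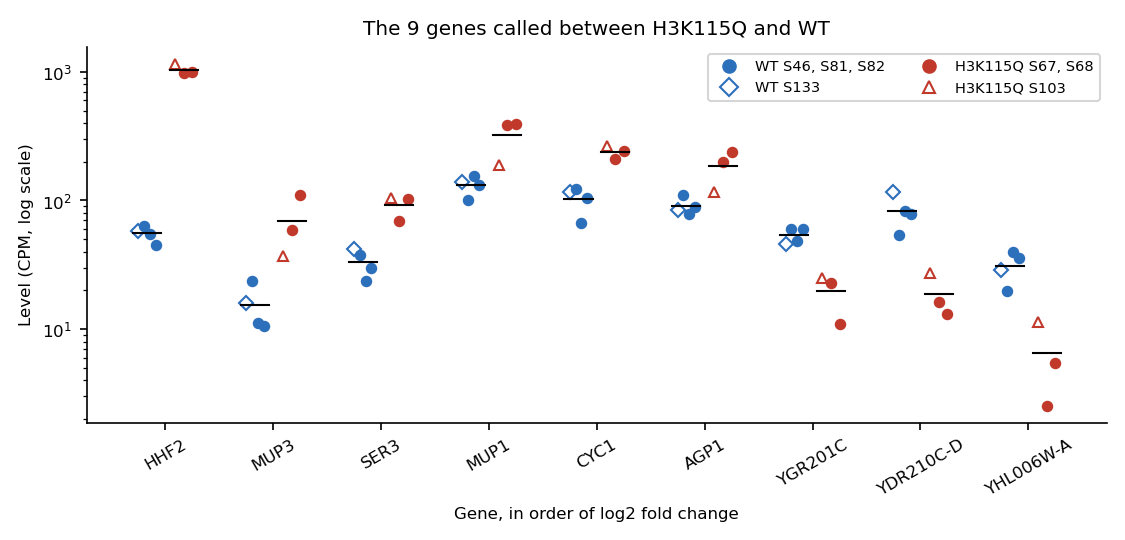
Level in CPM (y axis, log scale) of the 9 called genes in every library of WT (blue) and H3K115Q (red); black lines are the means of 4 and 3 libraries. Open triangles mark H3K115Q S103 and open diamonds WT S133, the libraries outside the first set, and the libraries of both genotypes are apart for each gene.

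HHF2, 1 of both genes for histone H4, had the smallest p of all genes and the largest fold among those called. It stood at 1150, 971 and 1005 CPM in H3K115Q S103, S67 and S68, against 58.2, 63.2, 55.1 and 45.2 CPM in WT S133, S46, S81 and S82. The lowest H3K115Q library was far above the highest WT library, and the 3 H3K115Q libraries lay close together. The mean was 1042 ± 94.8 CPM (SD, n = 3) against 55.4 ± 7.61 (n = 4), with a fitted log2 fold change of 4.23 ± 0.42 (standard error, edgeR adjusted p = 3.52e-11). HHF2 (YNL030W) occupies chromosome XIV, 576727 to 577038, in the R64 assembly, which is sacCer3. Its call was kept when any of the 7 libraries was left out, with adjusted p of 8.59e-09 or less.

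The other H4 gene, HHF1 (YBR009C, chromosome II, 255373 to 255684), had the same coding length of 312 bases and was not called. It stood at 1411, 1158 and 1428 CPM in H3K115Q S103, S67 and S68 and at 1382, 3126, 1850 and 998 CPM in WT S133, S46, S81 and S82. The 3 H3K115Q libraries lay inside the wide range of WT, and the log2 fold change was -0.46 ± 0.39 (edgeR adjusted p = 0.999). HHF2 therefore made up 44.9, 45.6 and 41.3% of the H4 counts in H3K115Q S103, S67 and S68, and 4.04, 1.98, 2.90 and 4.33% in WT S133, S46, S81 and S82. The mean share was 43.9% ± 2.31 (n = 3) and 3.31% ± 1.08 (n = 4). The exact two-sided permutation test gave p = 0.0571, the smallest that 3 against 4 libraries allow. HHF1 and HHF2 together gave 2375 ± 222 CPM in H3K115Q and 1894 ± 932 CPM in WT, a difference within the spread of WT (exact permutation test, p = 0.457).

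The H3 genes were not called. HHT2, which is divergent from HHF2, stood at 42.6, 61.9 and 50.2 CPM in H3K115Q S103, S67 and S68 and at 140.8, 56.4, 64.3 and 55.7 CPM in WT S133, S46, S81 and S82. WT S133 was the high one, the other WT libraries overlapped with H3K115Q, and the log2 fold change was -0.63 ± 0.40 (edgeR adjusted p = 0.999). HHT1 and HHT2 together gave 307 ± 63.9 CPM in H3K115Q and 309 ± 64.6 CPM in WT (exact permutation test, p = 0.914). The share of HHT2 in H3 counts was 18.2, 18.5 and 14.2% in H3K115Q S103, S67 and S68 and 36.8, 20.7, 18.8 and 23.1% in WT S133, S46, S81 and S82. All H3K115Q shares were below all WT shares, S67 and WT S81 by a small margin, with means of 16.97% ± 2.41 and 24.9% ± 8.14 (exact two-sided permutation test, p = 0.0571, again the smallest these numbers allow). Of the 11 histone genes tested, 1, HHF2, was called, beside 0.155% of all genes. Fitted log2 fold changes of the H2A genes were -0.28 (HTA1) and 0.58 (HTA2), of the H2B genes -0.38 (HTB1) and 0.35 (HTB2), and of HHT1 0.15. The variant genes HTZ1 (H2A.Z) and CSE4 (the centromeric H3) and the linker histone gene HHO1 had 0.17, 0.15 and 0.15. Among 18 regulators and chaperones of histones none was called, and the median log2 fold change was -0.12 against -0.02 over all genes. HIR1, a subunit of the repressor of histone genes, had -0.52 ± 0.19 (edgeR adjusted p = 0.519) and RTT109, an acetyltransferase of newly made H3, -0.53 ± 0.25 (adjusted p = 0.864).

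The genes around HHF2 were not called either. On the side of HHT2, SIW14 had a log2 fold change of -0.38 and YNL035C 0.14. On the other side, KTR5, a mannosyltransferase gene that converges on HHF2, had 0.40, CRZ1 (the calcineurin-responsive factor) -0.09 and SAM50 (outer membrane protein assembly in mitochondria) -0.39. Reads that map to more than one place were left out of gene counts and were 4.14 to 4.60 times the gene counts in H3K115Q and 2.64 to 4.78 times in WT. Their part in the level of genes with a near copy, such as HHF1 and HHF2, was not tested. Reads in no annotated gene were also left out, at 0.576 to 0.624 times the gene counts in H3K115Q and 0.511 to 0.665 times in WT. Whether transcript ends of HHF1 or HHF2 were among them was not tested. A count row stands for a gene name, so the place in the genome from which an HHF2 transcript came is not recorded.

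Over the whole series, H3K115Q ranked first of 30 genotypes in mean HHF2 level. H3K115A stood at 1258, 768 and 310 CPM, with a mean of 779 ± 474 (n = 3), and H3K36A, with alanine at lysine 36, at 499, 524 and 500.4 CPM. In H3K115R, with arginine at the same position, HHF2 was at 36.7, 59.7 and 65.1 CPM, with a range that overlaps WT. The share of HHF2 in H4 counts was 39.2 to 45.6% in the 9 libraries of H3K115Q, H3K115A and H3K36A. It was 0.492 to 5.15% in 80 of the other 81 libraries and 20% in H3K4R S55, the library with 24010 gene counts. H4 sums differed among the 9: the mean over H3K115A was 1730 ± 1041 CPM and over H3K36A 1195 ± 70.7 CPM, while HHF2 shares were 44.9% ± 0.362 and 42.6% ± 3.10.

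**Figure D3:**
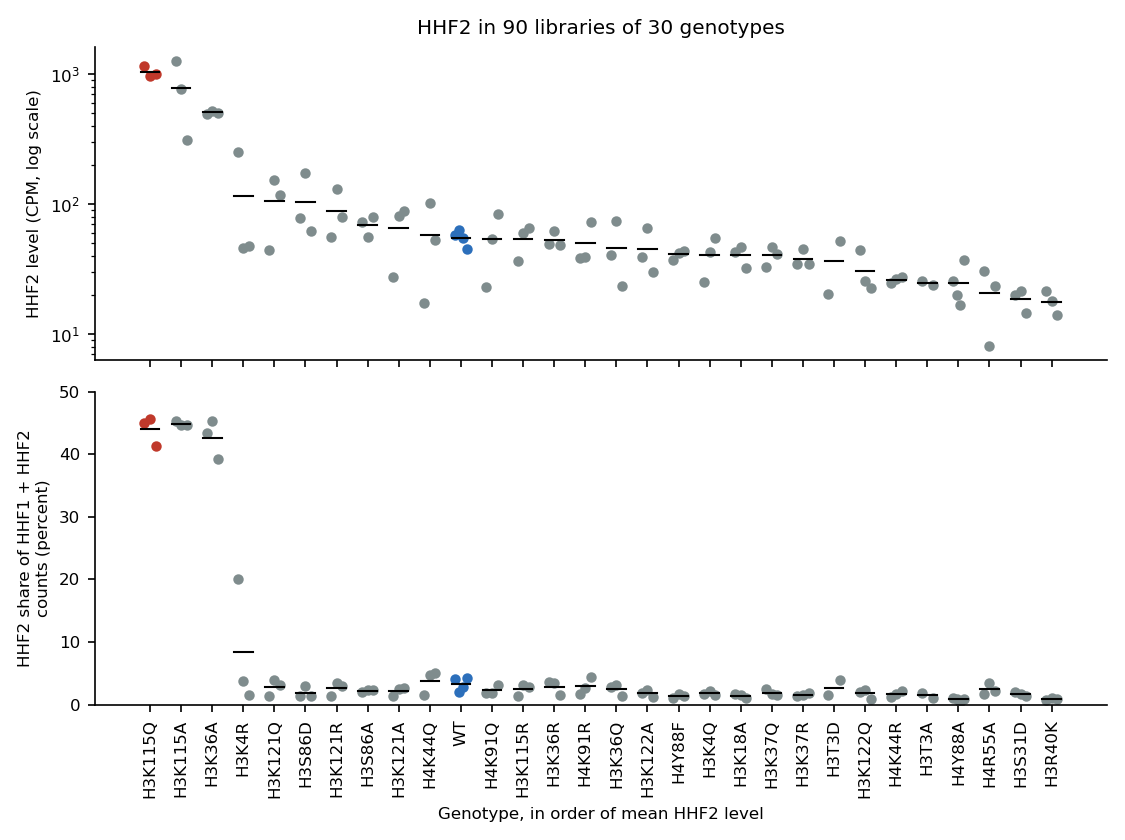
Level of HHF2 in CPM (upper panel, log scale) and share of HHF2 in the summed counts of HHF1 and HHF2 in percent (lower panel) for each of 90 libraries, by genotype in order of mean HHF2 level; black lines are means of 2 to 4 libraries. H3K115Q is red and WT blue, and the shares of 3 genotypes (39.2 to 45.6%) stand apart from all others but H3K4R S55 at 20%.

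SER3 encodes 3-phosphoglycerate dehydrogenase, which starts serine synthesis from a glycolytic intermediate. Its promoter is crossed by SRG1, a noncoding transcript, and in textbook accounts transcription of SRG1 places nucleosomes over the SER3 promoter and keeps SER3 low. SER3 (YER081W, chromosome V, 322686 to 324095) stood at 105.02, 69.6 and 103.6 CPM in H3K115Q S103, S67 and S68, and at 42.2, 37.4, 23.8 and 30.1 CPM in WT S133, S46, S81 and S82. All 3 H3K115Q libraries were above all 4 WT libraries. The means were 92.7 ± 20.1 and 33.4 ± 8.11 CPM, with a log2 fold change of 1.47 ± 0.29 (edgeR adjusted p = 0.00498). SRG1, which starts 474 bases before SER3 and shares 77 bases with it, stood at 64.7, 69.6 and 53.4 CPM in H3K115Q and at 84.95, 65.3, 34.4 and 56.7 CPM in WT. These ranges overlapped and the log2 fold change of SRG1 was 0.06 ± 0.22 (adjusted p = 0.999), with a sign that changed without H3K115Q S67 or without WT S81. Counts stand for transcript ends, and the shared 77 bases are the end of SRG1. How reads in them were assigned to SRG1 or SER3 is not given, so the SRG1 row may miss part of that transcript. Their part in both levels was not tested.

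The rest of the serine pathway was not called. Of 13 tested genes of serine and glycine metabolism, SER3 was called higher (beside 0.103% of all genes) and none lower, with a list median of 0.23. SER33, the paralogue of SER3, had a log2 fold change of 0.54 ± 0.28 (edgeR adjusted p = 0.912). SER2, which removes the phosphate in the last step, had 139.3, 156 and 145 CPM in H3K115Q against 105.1, 88.4, 79.4 and 130 CPM in WT, apart but not called (0.54 ± 0.18, adjusted p = 0.435). Neighbours of SER3 had log2 fold changes of 0.09 (YER079W), -0.02 (AIM9), -0.01 (UTP7), -0.28 (GET2) and -0.01 (YER084W), and none was called. The call of SER3 was lost without H3K115Q S68 or without WT S81, where the adjusted p rose to at most 0.142 while the log2 fold change stayed between 1.34 and 1.64.

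The permease genes among those called were all higher in H3K115Q. MUP1 encodes the high-affinity methionine permease, MUP3 a low-affinity methionine permease and AGP1 a broad-range permease of amino acids. MUP1 (YGR055W, chromosome VII, 599417 to 601141) stood at 189.5, 383.5 and 390.4 CPM in H3K115Q S103, S67 and S68 and at 139.9, 101.3, 155 and 130.96 CPM in WT S133, S46, S81 and S82. Its H3K115Q libraries were above every WT library, S103 least of all, and the log2 fold change was 1.28 ± 0.28 (edgeR adjusted p = 0.0182). MUP3 (YHL036W, chromosome VIII, 26241 to 27881) stood at 37.3, 59.4 and 110.1 CPM in H3K115Q and 16.0, 23.8, 11.1 and 10.5 CPM in WT, with a log2 fold change of 2.16 ± 0.48 (adjusted p = 0.0185). Here too S103 was the lowest of the H3K115Q libraries and still above WT. AGP1 (YCL025C, chromosome III, 76018 to 77919) stood at 117.2, 199 and 237 CPM in H3K115Q and 84.01, 110.8, 78.9 and 89.3 CPM in WT, with a log2 fold change of 1.02 ± 0.22 (adjusted p = 0.0149). S103 was above the highest WT library, S46, by a small margin only.

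In the list of methionine and S-adenosylmethionine transport, 3 of 7 tested genes were called higher and none lower, with a median log2 fold change of 1.02. Over all genes tested 0.103% were called higher, and the list was chosen with earlier results of these data known. MMP1, the S-methylmethionine permease, had 22.8, 29.7 and 22.9 CPM against 10.8, 16.99, 11.1 and 5.52 CPM, apart but not called (1.20 ± 0.38, edgeR adjusted p = 0.324). SAM3, the S-adenosylmethionine permease, had 0.58 ± 0.26 (adjusted p = 0.847), GNP1 0.10 and BAP2 -0.01. A wider list of 16 permeases, drawn up after the values were seen, held the same 3 calls, with a median of 0.40. In it BAP3, a permease of branched-chain amino acids, stood at 221, 431 and 425 CPM in H3K115Q and 158, 215, 225 and 160.1 CPM in WT, so that S103 lay just under the highest WT library (0.92 ± 0.25, adjusted p = 0.162). The general permease GAP1 had -0.35 ± 0.46 and the tryptophan permease TAT2 0.12 ± 0.26. The calls of MUP1, MUP3 and AGP1 were each kept in 2 of 7 fits with a library left out, those without H3K115Q S103 and without 1 WT library (S81 for MUP1, S46 for the others). They were lost without S67, S68 or the other WT libraries, with adjusted p up to 0.439, 0.706 and 0.664.

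CYC1 encodes the major form of cytochrome c, the electron carrier of mitochondrial respiration. It stood at 264, 210 and 241 CPM in H3K115Q S103, S67 and S68 and at 116.9, 122.3, 66.8 and 105.4 CPM in WT S133, S46, S81 and S82. The genotypes were apart, with a log2 fold change of 1.21 ± 0.26 (edgeR adjusted p = 0.0128). Of 36 respiratory chain and ATP synthase genes, CYC1 was the 1 called higher (beside 0.103% of all genes), none was called lower, and the median was 0.27. CYC7, the cytochrome c of low oxygen, had 1.52, 3.39 and 1.09 CPM against 5.63, 13.6, 4.05 and 5.52 CPM, apart in the opposite direction and not called (-1.73 ± 0.74, adjusted p = 0.750). BNA1, an enzyme of NAD synthesis from tryptophan, had 59.4, 100.96 and 91.6 CPM in H3K115Q and 148, 210.0, 149 and 170.1 CPM in WT. It was apart and just outside the threshold (-1.01 ± 0.25, adjusted p = 0.0655), and the 12 genes of NAD synthesis had a median of -0.18 with no call. The call of CYC1 was lost without H3K115Q S103, H3K115Q S68 or WT S81, with adjusted p up to 0.159.

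Of the 3 genes that were lower, YGR201C (chromosome VII, 902520 to 903197) is a reading frame without an assigned name. It stood at 25.1, 22.9 and 10.9 CPM in H3K115Q S103, S67 and S68 and at 45.5, 60.5, 48.1 and 60.2 CPM in WT S133, S46, S81 and S82. The log2 fold change was -1.41 ± 0.27 (edgeR adjusted p = 0.00498), and it was called in 6 of 7 fits with a library left out, the exception being that without S68 (adjusted p = 0.267). YDR210C-D, a reading frame of a Ty retrotransposon on chromosome IV, stood at 27.4, 16.1 and 13.1 CPM in H3K115Q and 116.9, 54.4, 83.5 and 78.8 CPM in WT (-2.12 ± 0.42, adjusted p = 0.00498). Ty copies resemble each other, so that only reads placed once are behind these levels. YHL006W-A, a name that the annotation used here does not hold, stood at 11.4, 2.55 and 5.45 CPM against 28.6, 19.7, 40.0 and 35.6 CPM (-2.21 ± 0.45, adjusted p = 0.00727), from 3 to 15 counts per H3K115Q library. Both genotypes were apart in each of these genes, and the calls of YDR210C-D and YHL006W-A were lost without S67 or S68 (adjusted p up to 0.161 and 0.340).

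Just outside the threshold, the lowest adjusted p values after BNA1 belonged to CIT2 and TAL1. CIT2, the peroxisomal citrate synthase, stood at 53.3, 174 and 236 CPM in H3K115Q S103, S67 and S68 and at 39.9, 83.6, 41.99 and 32.1 CPM in WT S133, S46, S81 and S82. S103 lay below WT S46, and the log2 fold change was 1.65 ± 0.41 (edgeR adjusted p = 0.0841). TAL1, transaldolase of the pentose phosphate pathway, stood at 116.4, 92.5 and 85.1 CPM in H3K115Q and 226, 439, 196 and 148 CPM in WT (-1.36 ± 0.34, adjusted p = 0.0884). All H3K115Q libraries were under all WT libraries, while none of 10 tested genes of that pathway, a list drawn up after the values were seen, was called, and its median was 0.11. ADH2, the alcohol dehydrogenase that glucose represses, had 12.2, 5.09 and 7.63 CPM against 39.4, 37.4, 37.9 and 44.2 CPM, apart with -2.23 ± 0.62 (adjusted p = 0.173). IMD4, an inosine monophosphate dehydrogenase of guanine nucleotide synthesis, had 1015, 1216 and 1288 CPM against 711, 675, 798 and 776 CPM, apart with 0.66 ± 0.18 (adjusted p = 0.153). FHN1, DCG1, DFR1, ESC8 and COS1 were also apart without a call over all libraries, with log2 fold changes of -1.59, -1.13, -0.77, -0.85 and 1.16.

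H3K115Q S103 stood apart from S67 and S68 in several metabolic groups, and the values are therefore given by library. The 14 tested genes of purine synthesis had a median log2 fold change of 0.78 with no call. Relative to the WT mean of each gene the list median was 0.20 in S103, 0.99 in S67 and 1.08 in S68, against -0.09 to 0.21 in the WT libraries. ADE2, which carboxylates the purine precursor, stood at 166, 399.6 and 484 CPM in H3K115Q S103, S67 and S68 and at 130.95, 165, 103.2 and 91.3 CPM in WT (1.51 ± 0.42, edgeR adjusted p = 0.173). ADE17, which closes the purine ring, stood at 35.8, 167 and 234 CPM and at 61.95, 51.7, 24.8 and 39.1 CPM (1.70 ± 0.66, adjusted p = 0.597). S103 was barely above the highest WT library in ADE2 and inside the WT range in ADE17, whereas S67 and S68 were above WT in both. BAS1, the activator of purine genes, had -0.47 ± 0.22 (adjusted p = 0.864).

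The 26 tested genes of sulfur assimilation and methionine synthesis had a median of 0.40 with no call, and list medians of -0.16 in S103, 0.56 in S67 and 0.58 in S68. MET6, the methionine synthase, stood at 15.2, 67.9 and 93.8 CPM in H3K115Q S103, S67 and S68 and at 12.7, 33.3, 19.7 and 13.5 CPM in WT (1.57 ± 0.53, edgeR adjusted p = 0.436). MHT1, which methylates homocysteine, had 3.04, 20.4 and 29.4 CPM against 7.51, 10.2, 3.54 and 7.02 CPM (1.28 ± 0.46, adjusted p = 0.506). In the iron regulon the order was the opposite. Its 13 genes had list medians of 0.53 in S103, -0.94 in S67 and -1.21 in S68, against -0.19 to 0.20 in WT, and SIT1, a siderophore transporter, stood at 90.6, 13.6 and 17.4 CPM against 49.3, 57.1, 81.5 and 66.2 CPM. The cell wall mannoprotein gene FIT2 stood at 915, 66.2 and 56.7 CPM in H3K115Q and at 745, 175, 178 and 163 CPM in WT S133, S46, S81 and S82. For FIT2 the libraries outside the first set, S103 and S133, were thus high in both genotypes. The iron list as a whole was not high in WT S133, where its median (-0.19) and SIT1 (49.3 CPM) were the lowest of the WT libraries. The glucose transporter gene HXT4 stood at 288, 979 and 1052 CPM against 271, 311, 163 and 164 CPM.

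**Figure D4:**
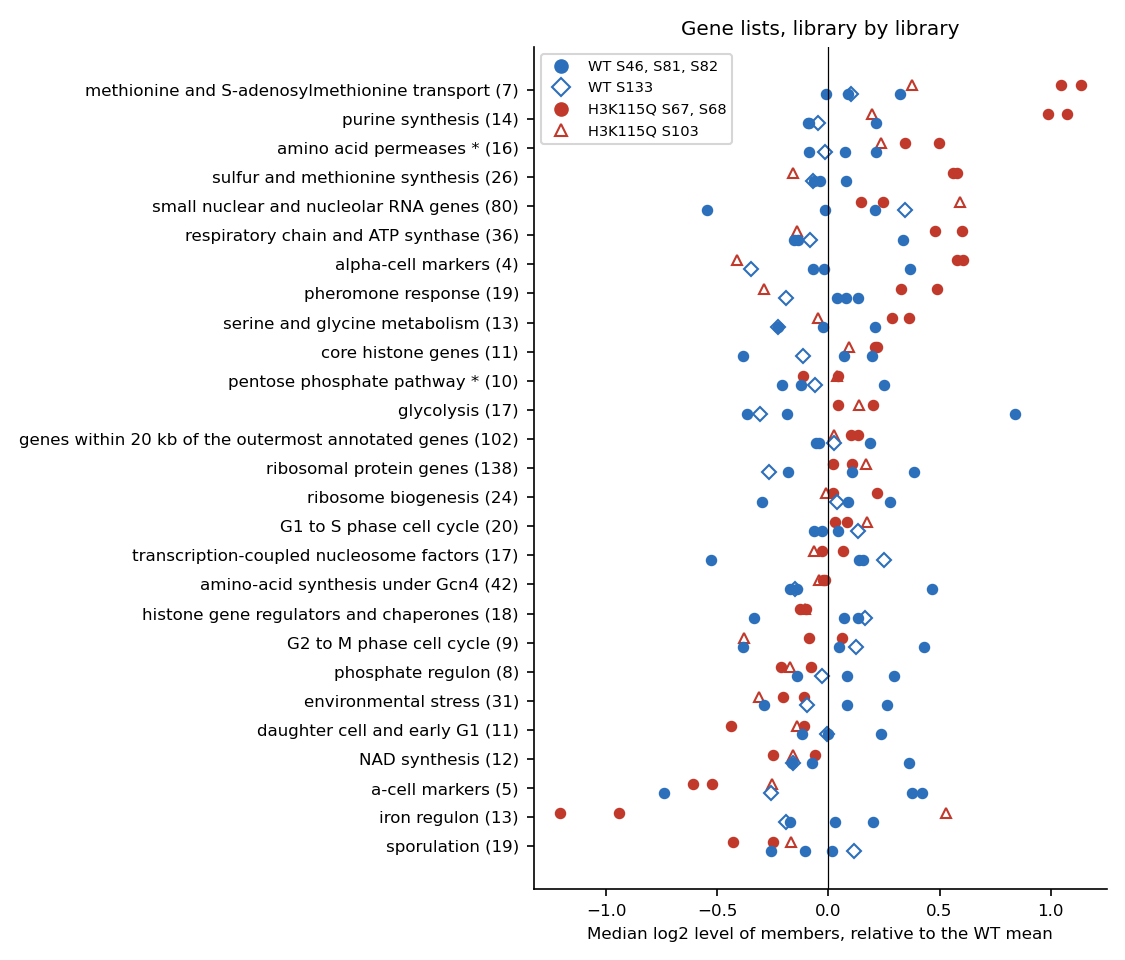
Median log2 level of the tested members of each gene list, relative to the WT mean of each gene (x axis), in every library of H3K115Q (red) and WT (blue); the number of tested members is in parentheses, an asterisk marks a list drawn up after the values were seen, and lists are in order of median fitted log2 fold change. S103 (open triangle) lies apart from S67 and S68 for purine synthesis, sulfur and methionine synthesis, respiratory chain and iron regulon.

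Within the first set alone, more genes passed. With all genotypes of that set in the fit, a choice made after the data were seen, H3K115Q was represented by S67 and S68 and WT by S46, S81 and S82. S67 and S68 differed by only 2.09 times counting noise, against 13.9 to 41.8 times for these WT pairs. The p values of H3K115Q thus rest on that close pair, without S103, and whether the pair came from separate cultures is not stated. The first-set fit called 43 of 5801 genes (0.741%), 23 higher (0.396%) and 20 lower (0.345%), among them all 9 of the comparison over all libraries. In it 5 of 14 purine genes were higher, ADE1, ADE2, ADE4, ADE13 and ADE17, with a log2 fold change of 1.89 for ADE2 (edgeR adjusted p = 0.0014) and 2.39 for ADE17 (adjusted p = 0.00241). Of 26 sulfur genes MET6 and MHT1 were higher, and of 13 iron regulon genes FET3, FTR1, SIT1, FIT2 and FIT3 were lower, with -2.15 for SIT1 (adjusted p = 0.0177). Outside the metabolic lists, 2 of 19 pheromone response genes were higher and 1 of 11 genes of daughter cells and early G1 was lower. ADH2 was lower by -2.66 (adjusted p = 3.76e-05) and HXT4 higher by 2.26 (adjusted p = 0.0014). With the set as a covariate in the fit over all 90 libraries, 27 genes (0.464%) were called, 8 higher (0.137%) and 19 lower (0.326%), again with all 9. The covariate fit added 18 genes, among them CIT2 and BAP3 (higher) and BNA1, TAL1, ADH2, DFR1, EMA19, BAT2, ARG56, DCG1 and FHN1 (lower), but none of the purine, sulfur or iron genes. With only the 5 libraries of H3K115Q and WT in the first set, 7 of 5313 genes (0.132%) were called: HHF2, ADE1, ADE17 and HXT4 higher and ADH2, YDR210C-D and SIT1 lower. H3K115Q S103 has no WT library in its own set, so set and genotype cannot be told apart for that library alone. Some other mutants also had a gap between sets. ADE17 stood at 113.1 and 91.76 CPM in H3K115R S65 and S66 against 43.75 CPM in S102. MET6 stood at 69.59 and 74.82 CPM in H3K122A S59 and S60 against 19.16 CPM in S99. ADE17 in H3K122A and H3K122Q went the other way, and MET6 in H3K115R was not higher in the first set. ADE17 and ADE1 were called higher than WT in 5 and 4 other mutants. Whether the set had a part in these levels was not tested.

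Other groups held no called gene, with medians to be read against -0.02 for all genes tested. Ribosomal protein genes had a median log2 fold change of 0.06, 24 genes of ribosome biogenesis 0.04, 17 of glycolysis 0.09 and 20 of the G1 to S phase cell cycle 0.01. The 42 genes of amino acid synthesis under Gcn4 had -0.11 and the 31 genes of environmental stress -0.16. Of the former, ARG56 had 82.2, 57.7 and 64.3 CPM in H3K115Q against 80.3, 368, 95.1 and 74.3 CPM in WT, with WT S46 alone high; it was called lower with the set as covariate (-1.42, edgeR adjusted p = 0.0244). The 19 tested sporulation genes had -0.41 and none was called. All 22 listed sporulation genes summed to 125.4 to 150 CPM in H3K115Q and 142 to 168 CPM in WT. Small nuclear and nucleolar RNA genes (80 tested) had 0.32 with no call, and list medians ranged from 0.15 to 0.59 in H3K115Q and from -0.54 to 0.34 in WT. Among 17 factors that act on nucleosomes during transcription, the remodeller CHD1 had 127.9, 134.9 and 106.9 CPM against 227, 101.3, 225 and 222 CPM, with WT S46 under all H3K115Q libraries (-0.65 ± 0.25, edgeR adjusted p = 0.584). No tested gene within 20 kb of the outermost annotated genes of chromosomes was called, with a median of 0.07. No nuclear chromosome was shifted as a whole: medians per chromosome in the H3K115Q libraries lay between -0.07 and 0.05.

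The same residue with another substitution gave the closest comparison. Between H3K115Q and H3K115A (n = 3 each) edgeR called 0 of 5822 genes (0.0%) and DESeq2 0, with 289 (4.96%) and 257 at an unadjusted p under 0.05. H3K115A S64, the library with the lowest HHF2 level of that mutant, had 894797 gene counts. Its reads mapped to more than one place were 7.42 times the gene counts, against 3.03 and 3.04 in S101 and S63. With a library left out, edgeR gave 140 to 484 genes at an unadjusted p under 0.05, 148 without S64, and 0 calls. The 95% interval of the log2 difference was -0.39 to 1.23 for HHF2 and -0.07 to 1.12 for SER3, so that a 2-fold difference in SER3 is within it. MUP1 stood at 166, 239 and 179 CPM in H3K115A, and its interval, 0.12 to 1.31, lies above 0 without a call (edgeR adjusted p = 0.970). MUP3 stood at 43.2, 35.2 and 15.1 CPM there, with an interval of 0.11 to 2.06. A p that misses the threshold does not show that these genotypes act alike.

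Between H3K115Q and H3K115R, 1 gene (0.0172%) was called, HHF2 (171 genes, 2.94%, had an unadjusted p under 0.05), with a log2 difference of 4.28 ± 0.48 and an interval of 3.33 to 5.22 (edgeR adjusted p = 3.21e-09). It was called without any single library of both genotypes. SER3 stood at 83.6, 40.2 and 28.9 CPM in H3K115R, overlapping with H3K115Q (0.86 ± 0.31, adjusted p = 0.9999). MUP1 stood at 165, 108.7 and 146 CPM in H3K115R, below all H3K115Q libraries, and was not called (1.20 ± 0.31, interval 0.59 to 1.80, adjusted p = 0.718). Against WT, YDR210C-D and YHL006W-A were called lower in H3K115R too, with -2.47 and -2.08 beside -2.12 and -2.21 in H3K115Q. These comparisons share the 4 WT libraries.

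The same substitution at the other dyad lysine, H3K122Q, differed from H3K115Q in 3 called genes (0.0515%), 1 higher in H3K115Q (0.0172%) and 2 lower (0.0344%). HHF2 was at 44.2, 25.7 and 22.5 CPM in H3K122Q, lower than in H3K115Q (log2 difference 5.08 ± 0.51, edgeR adjusted p = 2.89e-11). SER3 was at 358, 261 and 383 CPM in H3K122Q, above every H3K115Q library, with a log2 difference of -1.85 ± 0.30 for H3K115Q over H3K122Q (adjusted p = 0.000113). SER3 kept this call without any single library (adjusted p up to 0.0120). FIG2, a cell wall adhesin of mating cells, was at 296, 710 and 1204 CPM in H3K122Q and 118.7, 283 and 209 CPM in H3K115Q (-1.86 ± 0.38, adjusted p = 0.0111). Its call was lost without H3K115Q S103, H3K115Q S68 or H3K122Q S62 (adjusted p up to 0.645). MUP1 stood at 208, 288 and 369 CPM in H3K122Q, with an interval of -0.44 to 0.75 around a log2 difference of 0.15.

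**Figure D5:**
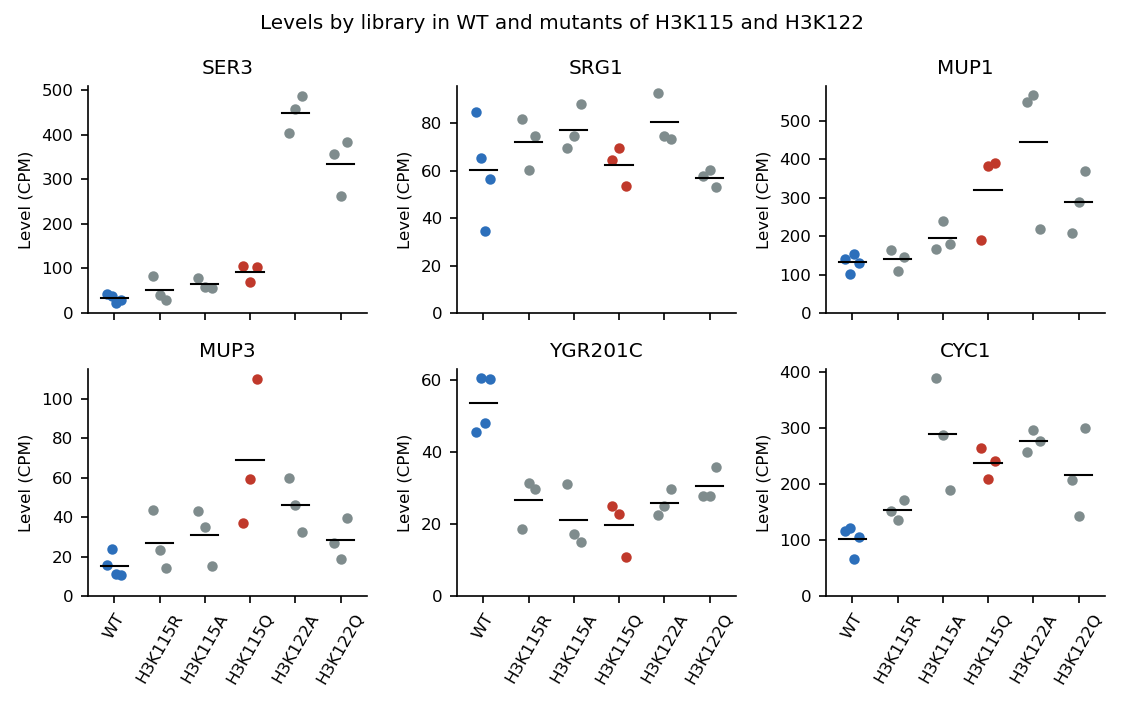
Level in CPM (y axis) of SER3, its upstream noncoding transcript SRG1, MUP1, MUP3, YGR201C and CYC1 in every library of WT (blue), H3K115Q (red) and other mutants of K115 and K122 of H3 (grey); black lines are means of 3 or 4 libraries. SER3 in H3K115Q (69.6 to 105.02 CPM) lies between WT (23.8 to 42.2 CPM) and H3K122Q (261 to 383 CPM), and the SRG1 ranges of H3K115Q and WT overlap.

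Set beside all 30 genotypes, H3K115Q came next in mean SER3 level after H3K122A (449 ± 41.1 CPM) and H3K122Q (334 ± 63.98 CPM), and WT ranked 28th. SER3 was called higher than WT in 4 of 29 mutants, MUP1 in 4, MUP3 in 3 and AGP1 in 6. CYC1 was called higher in 19 mutants, and YDR210C-D, YHL006W-A and YGR201C were called lower in 12, 10 and 4, all against the same 4 WT libraries. When the reference was not WT but the average of the 28 other mutants, 5 genes (0.0859%) were called, all higher in H3K115Q. They were HHF2 (log2 4.32), MUP1 (0.92, edgeR adjusted p = 0.0263), CIT2 (1.49, adjusted p = 0.00301), BAP3 (0.90, adjusted p = 0.00662) and MET6 (1.63, adjusted p = 0.0452). In that comparison CYC1 had a log2 difference of 0.11 and BNA1 -0.01, SER3 0.80 (adjusted p = 0.135) and YGR201C -0.90 (adjusted p = 0.135). The authors' deposited table of log2 fold changes over WT had the same sign for all 9 called genes, with 3.73 for HHF2, 1.15 for SER3 and -0.92 for YGR201C, by a method that is not given in the sources used here.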

How the data were processed

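Raw counts of QuantSeq 3′ libraries, as deposited by the authors, were analysed for 90 libraries. Per the submitters' processing notes, TopHat, HTSeq, featureCounts 1.5.3 and the sacCer3 build were used, with no roles given. The strand setting is not given in the sources used here. The authors also deposited log2 fold changes of mutants over WT, which were only set beside the fitted values. The table held 7122 genes, of which 6157 (86.5%) matched RefSeq names of assembly R64, and 5 summary lines, which were dropped. No sequences are shown.

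Counts were scaled by trimmed mean of M values (TMM) and genes kept by filterByExpr (5822). All 90 libraries entered 1 quasi-likelihood model, with a term for each genotype, in edgeR 4.0.16 (R 4.3.3; 60 residual degrees of freedom; common dispersion 0.0543, a spread of 23.3%), two-sided, with Benjamini-Hochberg adjustment over all genes tested. Standard errors are the absolute log2 fold change over the root of F. Levels are TMM-scaled CPM and list medians per library used log2 CPM with a prior count of 2. Intervals of 95% are 1.96 standard errors wide on each side. The steps were tested on counts simulated with the depths and fitted dispersions of the real libraries. Apart from the changed genes, each gene had the same mean level in every library, with no set effect. Changed genes were drawn only from those above a minimum level. Of these, 61% of 100 genes changed 2-fold and 94% of 100 changed 4-fold were called. None of them had the wrong sign, and 11 unchanged genes were called. Such rates may not hold for low genes or for libraries that differ as those here did. Exact permutation tests were used for the histone sums and shares.

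The members, the lists, the naming rule and the sets of sample numbers were chosen with earlier results of these data known. Named were all called genes, the histone genes, up to 4 members per list with an unadjusted p under 0.05, the 10 uncalled genes of smallest p whose genotypes were apart with at least 10 CPM, 3 neighbours on each side of HHF2 and SER3, up to 6 genes called in each fit with sets or between mutants, and CYC1, BNA1, YDR210C-D, YHL006W-A and SRG1. Other genes named as members of a list, such as SER33, SAM3, GAP1, FIT2 and BAS1, were chosen after their values were seen. Alternatives were DESeq2 1.42.0, relative log expression (RLE) scaling, no filter, other sets of libraries in the fit, another reference, a minimum fold change and each library left out.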

Additional observations from a re-analysis of the deposited data

Results flagged for a closer look

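Among the 4 WT libraries, 9 of 81 named genes had 1 library set apart from the other 3 by more than Dixon's 95% critical value for a group of 4. Chance flags about 1 in 20 such groups, and the genes are not independent. WT S46 was the one set apart in 7 of them. In WT S46, ARG56 (an enzyme of arginine synthesis) stood at 367.7 CPM against 74.3 to 95.1 CPM in the others, HOM3 (aspartate kinase) at 50.3 against 7.59 to 14.6, and CYC7 at 13.59 against 4.05 to 5.63. ENO1 (enolase) was at 771.4 CPM against 292 to 345, DFR1 (dihydrofolate reductase) at 91.76 against 46.9 to 53.2, and YNL035C at 12.91 against 7.98 to 8.10. CHD1 was the lowest there, at 101.3 CPM against 222 to 227. HHT2 was set apart in WT S133, at 140.8 CPM against 55.7 to 64.3, and CSE4 in WT S82, at 36.13 CPM against 23.8 to 24.9. None of these 9 genes was called between H3K115Q and WT in the fit over all libraries without the set, while ARG56 and DFR1 were called lower with the set as covariate (edgeR adjusted p = 0.0244 and 0.0237). Whether handling of these libraries had a part was not tested.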

How the results depend on the processing

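The 9 calls against WT became 14 with DESeq2 (6 lower), 2 with only the libraries of both genotypes (1 higher, HHF2, and 1 lower, ADH2), 5 against the mean of the 28 other mutants (0 lower), 1 with a minimum log2 fold change of 1 (1 higher, 0 lower), 27 with the set as covariate (19 lower), and 43 in the first set of all genotypes (23 higher, 20 lower). The cause of these changes was not tested. The fit of both genotypes estimated the spread from fewer libraries and tested 5285 genes in place of 5822. RLE scaling, no filter, the first set of both genotypes and leaving out H3K4R S55 gave 9, 10, 7 and 9. Leaving out 1 library gave 1 to 10 calls, 1 to 7 of them higher and 0 to 4 lower, and 1, HHF2, without H3K115Q S68. The comparison with H3K122Q gave 1 call with only both genotypes, 10 with the set and 2 to 5 with a library left out, that with H3K115R 1 to 2, and that with H3K115A 0 in each. Over the alternative fits the 9 called genes gave 153 fold changes, 1 per gene and fit. None of these changed sign, and in 55 of them the gene lost its call, which HHF2 never did. Signs changed for 13 uncalled genes, as log2 fold changes. Against the other mutants these were HHT1 (-0.088), HTB1 (0.18), CSE4 (-0.15) and GAS2 (-0.10). With the set as covariate they were YNL035C (-0.051), AIM9 (0.0040) and UTP7 (0.14). In the first set of both genotypes and of all genotypes, AIM9 gave 0.12 and 0.10, UTP7 0.11 and 0.10, and YER084W 0.43 with all genotypes. UTP7 gave 0.0069 with only both genotypes.
With 1 library left out, fitted values ranged for HTA1 -0.41 to 0.013, for HTB1 -0.63 to 0.22, for CRZ1 -0.42 to 0.31, for YER079W -0.082 to 0.41, for AIM9 -0.15 to 0.082, for SRG1 -0.14 to 0.27, for UTP7 -0.093 to 0.15 and for YER084W -0.94 to 0.30. The range was -0.042 to 0.55 for FIG2. No paired analysis was possible because the columns of the count table carry no replicate numbers. Depth limits genes of few counts: in the 1165 tested genes of lowest WT level the median standard error was 0.544 on the log2 scale, against 0.238 in the highest.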
